A study of Mus musculus with 2 samples.

Results

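Wfdc18, Wfdc2, Pglyrp1, Crisp3, Lcn2 and Slpi encode secreted proteins of innate defence, and their transcripts were followed across the ducts, acini and other cells of the mouse parotid gland (PG) with and without irradiation (IR). The 6 genes were taken by symbol from the 48825 features of the count matrices, and each symbol matched 1 feature in both libraries. The samples were 2 single-cell RNA libraries from WT C3H mice, 1 labelled Non-Irradiated (control) and 1 labelled Irradiated (IR), and per the study each pooled the glands of 2 female mice that were 1 year old. The IR mice had received 6 Gy to the head and neck on each of 5 days, 30 Gy in all, and their glands were taken 10 months later. With 1 library per condition the mice cannot be told apart and no test between conditions was possible, so every interval given here is a 95% interval that covers counting error only.

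Saliva leaves the acini through intercalated ducts (ID) and then striated ducts (SD), and the cells of these ducts add proteins that bind, starve or disarm microbes and that hold proteases in check. Slpi, Wfdc2 and Wfdc18 carry the WAP domain, a small disulfide-rich fold, and Slpi is a well-characterised inhibitor of neutrophil serine proteases. Pglyrp1 binds the peptidoglycan of bacterial cell walls, Crisp3 is a cysteine-rich protein of the CAP family that is secreted into saliva, and Lcn2 is a lipocalin that captures bacterial siderophores and so withholds iron.

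On the GRCm38 (mm10) assembly, Wfdc18 (ENSMUSG00000000983.13) lies on the plus strand at chr11:83709015-83711348 and Pglyrp1 (ENSMUSG00000030413.7) on the plus strand at chr7:18871331-18890459. Crisp3 (ENSMUSG00000025433.7) lies on the minus strand at chr17:40221777-40242288. Lcn2 (ENSMUSG00000026822.14), at chr2:32384633-32388252 on the minus strand, shares its chromosome with Slpi (ENSMUSG00000017002.14, chr2:164354070-164389095, minus strand) and Wfdc2 (ENSMUSG00000017723.11, chr2:164562413-164568510, plus strand). The latter 2 genes belong to one WAP gene neighbourhood and are 173 kb apart. The 250 bases before the start site are shown for the genes that marked ID (Wfdc18 and Pglyrp1) and SD (Crisp3) most clearly, from RefSeq on GRCm38.p6, 5′ to 3′ on the strand of the gene. The windows are chr11:83708754-83709003 (plus strand), chr7:18884440-18884689 (plus strand) and chr17:40242289-40242538 (minus strand). The gene spans above are those of GENCODE and the start sites those of RefSeq, so a window can lie inside a span. The Pglyrp1 window does, with 10 of its bases in GENCODE exons. The windows of Wfdc2 and Lcn2, searched but not shown, held 146 and 197 such bases. Capitals mark, on either strand, the TATA box letters TATAAA, the ETS-factor core AGGAAG and the C/EBP letters TTGCNNAA.
Wfdc18: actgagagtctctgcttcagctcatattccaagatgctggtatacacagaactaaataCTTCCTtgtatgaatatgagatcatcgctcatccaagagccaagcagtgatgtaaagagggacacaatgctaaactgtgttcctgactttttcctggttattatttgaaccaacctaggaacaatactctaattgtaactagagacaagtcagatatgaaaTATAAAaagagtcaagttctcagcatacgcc
Pglyrp1: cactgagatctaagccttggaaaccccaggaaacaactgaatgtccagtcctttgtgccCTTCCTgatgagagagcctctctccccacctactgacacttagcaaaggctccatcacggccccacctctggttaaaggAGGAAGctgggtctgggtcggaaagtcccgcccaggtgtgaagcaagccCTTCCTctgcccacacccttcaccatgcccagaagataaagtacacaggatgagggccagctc
Crisp3: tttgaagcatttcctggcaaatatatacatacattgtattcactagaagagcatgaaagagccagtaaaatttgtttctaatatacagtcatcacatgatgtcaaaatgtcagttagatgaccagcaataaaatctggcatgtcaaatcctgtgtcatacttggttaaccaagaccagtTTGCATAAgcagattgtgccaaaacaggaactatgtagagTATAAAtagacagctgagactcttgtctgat
In both the Wfdc18 and the Crisp3 window TATAAA began 31 bases before the start site, and it was in none of the windows of the other 4 genes. Over 27025 RefSeq promoter windows of this length, 13.0% held TATAAA on either strand, 29.2% held AGGAAG and 9.55% held TTGCNNAA. AGGAAG occurred 1 time before Wfdc18, 2 times before Wfdc2 and 3 times each before Pglyrp1 and Lcn2, and TTGCNNAA occurred 1 time each before Crisp3, Lcn2 and Slpi. GGGANTTCC, the letters of an NF-kB site, was in 383 promoters (1.42%) and in none of the 6. These matches describe letters only, and no match says nothing about a factor.

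The control library held 22707876 UMIs (unique molecules) in 5550 barcodes and the IR library 23890757 UMIs in 7793, and 3378 and 5286 barcodes passed the limits of at least 200 genes and at most 5% mitochondrial UMIs. The libraries shared 12 barcodes, none of them a duct cell. Clustering without the 6 genes gave an ID class of 107 control and 126 IR cells (median 1180 and 4248.5 UMIs per cell) and an SD class of 88 and 73 cells (median 723.5 and 1975). Dcpp1 (demilune cell and parotid protein) made up 32.5% of the ID UMIs in control and 26.6% in IR. Of the 8 listed ID markers 5 had a UMI in control ID and 7 in IR ID. Kit, Krt7 and the neonatal marker Smgc were at 0 in control, and Smgc was at 0 in IR. The genes that led this cluster by fold were 8 genes of odorant-binding proteins, secretoglobins and the like (Obp1a, Obp1b, Scgb1b2, Scgb2b2, Scgb2b24, Mucl2, Gm1553 and Gm5938), ahead of Dcpp2 and Dcpp3, and they came from 2 control barcodes of 11542 and 28476 UMIs. In these 2 barcodes the 8 genes made up 70.3% and 87.1% of the UMIs and the Dcpp genes at most 0.0632%, whereas in no other ID barcode did the 8 genes exceed 1.20%. The 2 barcodes, called Obp-rich here, thus carried little of the Dcpp markers of the class, and they held 11.3% of the control ID UMIs but only 3 UMIs of the 6 genes, all of Wfdc18. Control ID values are given with them, and without them where this changed a direction or a call. The SD class carried Klk1 (kallikrein) at 46334 CPM (UMIs of the gene per 1000000 UMIs of the class) in control and 9802 CPM in IR, and Fxyd2, a subunit regulator of the sodium pump, at 17231 and 3127 CPM. Of the 12 listed SD markers 8 had a UMI in control SD and 11 in IR SD. Cftr, Slc5a8, Atp6v1b1 and Kcnj10 were at 0 in control, and Kcnj10 was at 0 in IR. A group of 20 control and 22 IR cells that clustered with the Etv1+ cells but matched the ID marker list best was kept apart. It is called Etv1+ Dcpp-rich and is counted among the duct classes. Dcpp1 made up 19.5% of its UMIs in control and 19.8% in IR. By fold Ltf, Wfdc18 and Sftpd led it, ahead of Dcpp1. Its acinar markers summed to 418880 CPM in control and 385569 CPM in IR, above its ID markers (198760 and 201104 CPM). UMIs of acinar secretory genes were in every class, and B cells, which should lack the 6 genes, serve as the measure of free RNA, with a median of 2538.5 UMIs per cell in control and 2175 in IR.

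Before any result, a feature of the IR duct classes has to be stated. In the IR library 51 ID barcodes of 2279 to 17484 UMIs had nearly the same composition: the chi-square per gene over them was 1.15, against 17.9 for the other 40 IR ID barcodes of at least 1000 UMIs and 104 for the 58 such control ID barcodes, the 2 Obp-rich ones among them. Another set of 45 barcodes, 41 of the SD class and 4 of the ID class, gave 1.14, against 10.2 and 9.09 for the other IR and the control SD barcodes. No such set was found in control. A value of 1 is that of counts drawn from 1 composition. Within the sets Bpifa2 (a salivary BPI-fold protein) stayed between 31.0% and 36.4% of UMIs in the ID set and between 34.0% and 45.8% in the SD set. The SD set is named after the class of most of its barcodes. It had Klk1 at 0.359% and Dcpp1 at 8.02% of UMIs, against 4.63% and 1.13% in control SD. Each result that rests on IR duct cells is therefore given with these barcodes and without them, which left 71 ID cells and 32 SD cells in IR. The origin of the sets was not tested.

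**Figure D1:**
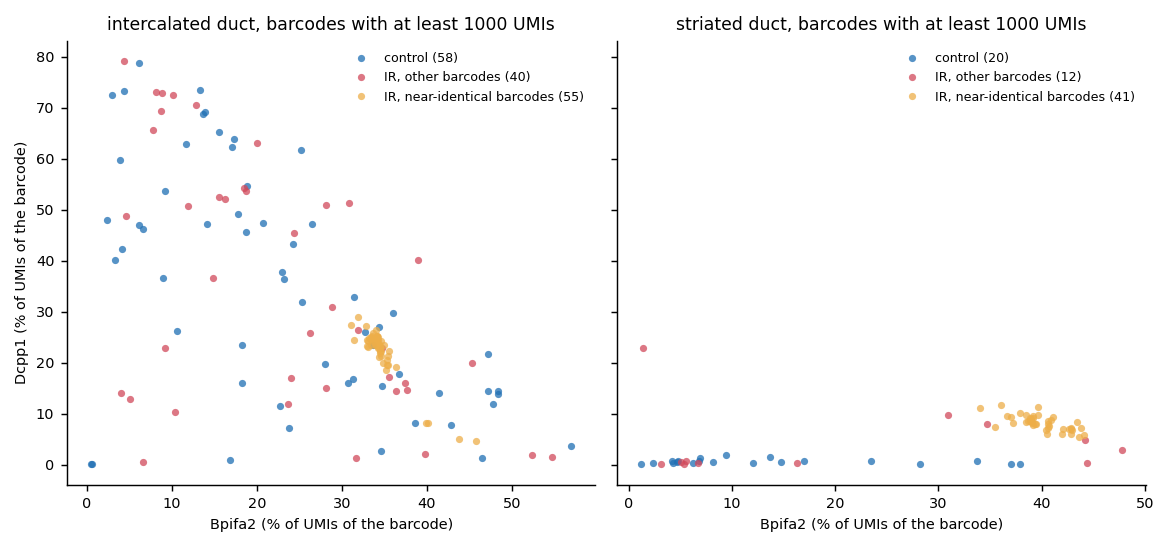
Share of UMIs from Bpifa2 (x axis, %) and Dcpp1 (y axis, %) in each ID (left) and SD (right) barcode with at least 1000 UMIs, 1 point per barcode. Control and other IR barcodes scatter widely, whereas the near-identical IR barcodes (orange) sit in tight groups, with Dcpp1 near 23.8% in the ID set and 8.02% in the SD set.

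In control 5 of the 6 genes had their highest level in a duct class, among the 16 named classes with at least 20 cells, and Slpi was the exception. For comparison 11.4% of the 13800 genes with at least 10 UMIs were highest in a duct class there. In IR, where 17 classes had 20 cells, 4 of the 6 were highest in a duct class, against 4.64% of all genes, because Lcn2 was highest in myoepithelial cells. In control the myoepithelial class had only 16 cells and was not counted. Its Lcn2 level there was also above that of every duct class, as given below. These counts were the same when the near-identical barcodes were left out, and when the Etv1+ Dcpp-rich class was left out. Of all genes, 10.4% in control and 4.02% in IR were highest in ID or SD themselves. Between the 2 segments, Wfdc18 and Pglyrp1 were higher in ID (called ID genes here) and Wfdc2 and Crisp3 in SD (SD genes) in both libraries, as the plot shows. By CPM Wfdc18 was highest of all in Etv1+ Dcpp-rich cells in both libraries. In IR this held without the cell with most UMIs as well (1246 CPM, against 735 CPM in ID). It did not hold when the near-identical barcodes were also left out, where ID stood at 1318 CPM. In control ID was highest without the cell with most UMIs (1314 CPM, against 1085 CPM in Etv1+ Dcpp-rich cells). Deep Etv1+ cells held 39.4% of the control Pglyrp1 UMIs, and ID cells 11.6%.

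**Figure D2:**
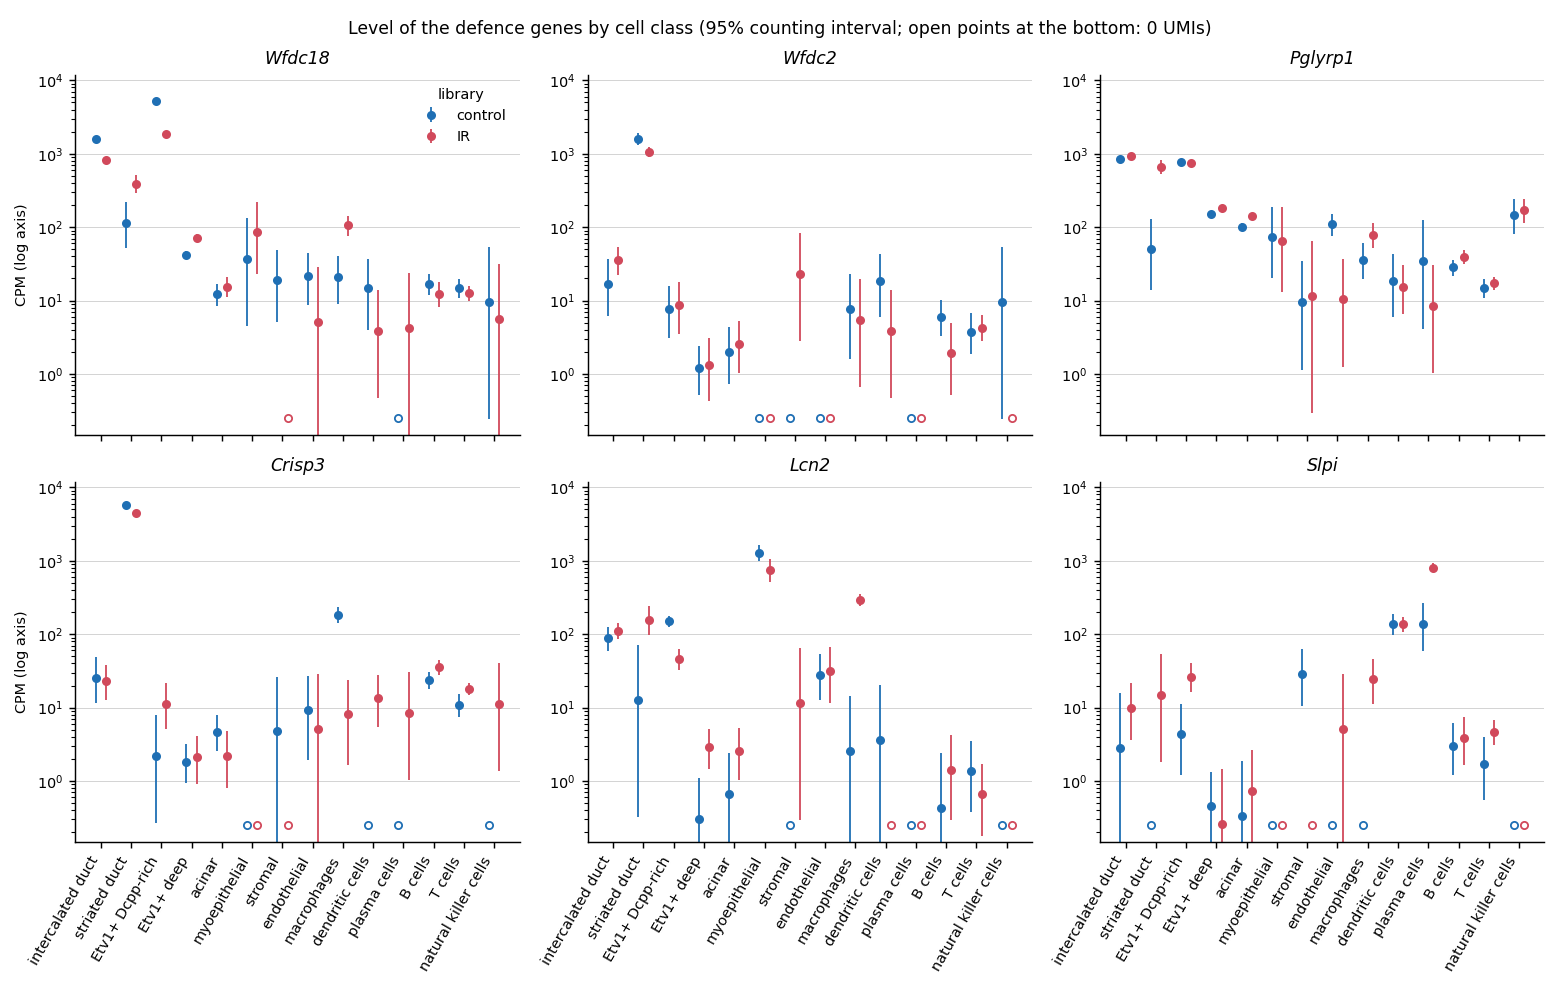
Level of each gene in CPM (log axis) in 14 cell classes of the control (blue) and IR (red) library, with 95% Poisson intervals as bars and open points for classes with 0 UMIs. Wfdc18 and Pglyrp1 are high in ID and in Etv1+ Dcpp-rich cells, Wfdc2 and Crisp3 in SD, Lcn2 in myoepithelial cells and Slpi in plasma and dendritic cells.

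Wfdc18, a WAP-domain protein whose role in saliva is little known, was the ID gene with the higher level in control ID cells. The control ID cells held 563 UMIs (1589 CPM, 1460 to 1725) and the control SD cells 9 UMIs (115 CPM, 52.7 to 219), a ratio of 13.8 (7.22 to 30.3). Acinar cells held 36 UMIs (12.1 CPM) and B cells 39 (16.8 CPM), so the acinar level did not exceed that of B cells. Wfdc18 was seen in 64 of 107 control ID cells (59.8%), against 4.53% of B cells, and in 27 of the 58 ID cells (46.6%) that could be thinned to 1000 UMIs.

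In IR the ID cells held 500 Wfdc18 UMIs (819 CPM, 748 to 894) in 95 of 126 cells, and without the near-identical barcodes 313 UMIs (1572 CPM, 1403 to 1756) in 45 of 71 cells. The level in the 71 cells thus overlapped the control interval, and the lower value over all 126 went with the ID set, where Wfdc18 was at 454 CPM. SD cells of IR held 52 UMIs (391 CPM, 292 to 513), and without the sets 36 UMIs (902 CPM) that lay in 5 cells, with 19 in 1 of them. The ID to SD ratio was 2.09 (1.57 to 2.84) in IR and 1.74 without the sets, so the step seen in control was smaller in the IR library. The ID marker Dcpp1 was likewise higher in IR SD cells than in control SD cells, as given below.

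Few cells carried most of the Wfdc18 message. In control ID 5 cells held at least 50% of the UMIs, the highest of them 101, while the median among cells with a UMI was 3. The Etv1+ Dcpp-rich class had the highest sum of all, 4715 UMIs (5154 CPM) in control and 1501 (1873 CPM) in IR, but 3775 of the control UMIs came from 1 cell, and without that cell the level was 1085 CPM. In this cell of 48195 UMIs Wfdc18 made up 7.83% of the message, beside 1046 UMIs of Ltf (lactoferrin), 199 of Pglyrp1, 179 of Sftpd (surfactant protein D) and 93 of Lcn2, with only 6 of Dcpp1.

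Wfdc2, also known as HE4, was an SD gene. The control SD cells held 125 UMIs (1599 CPM, 1331 to 1905) in 46 of 88 cells (52.3%), and the control ID cells 6 UMIs (16.9 CPM, 6.21 to 36.9) in 6 of 107. In B cells Wfdc2 was seen in 1.67% of control cells (6.02 CPM). SD exceeded ID 94.5-fold (42.2 to 262), and thinning to 1000 UMIs left the shares at 11 of 20 SD cells and 2 of 58 ID cells.

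The IR SD cells held 141 Wfdc2 UMIs (1060 CPM, 892 to 1250) in 52 of 73 cells, and without the near-identical barcodes 75 UMIs (1879 CPM, 1478 to 2356) in 21 of 32. IR ID cells held 22 UMIs (36.0 CPM), and 8 without the sets, with 5 of the 8 in 1 cell. The SD to ID ratio was 29.4 (18.7 to 48.5) in IR and 46.8 without the sets. In control SD no cell held more than 8 Wfdc2 UMIs, and 11 of the 46 cells with a UMI held 50% of the sum.

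Slpi was not a duct gene in these libraries, although it is the best-known protease inhibitor of saliva. Control ID cells held 1 UMI and control SD cells 0, where a count of 0 allows up to 38.4 CPM, and IR ID and SD cells held 6 and 2. The message lay in immune cells. Dendritic cells held 38 UMIs (139 CPM, 98.3 to 191) in control and 71 (136 CPM, 106 to 172) in IR, a ratio of 0.98 (0.65 to 1.49).

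Within the dendritic class Slpi went with Siglech, a surface lectin of plasmacytoid dendritic cells, a split that was chosen after its values were seen. Of the cells with a Siglech UMI, 12 of 19 in control and 26 of 46 in IR had Slpi, at 343 and 270 CPM (269.8), and of the cells without one, 0 of 25 and 0 of 42 did. Plasma cells held 8 Slpi UMIs in control (2 of 8 cells) and 191 in IR (6 of 31 cells). Of the 191, 152 were in 1 cell of 11504 UMIs that also held 558 UMIs of Jchain, the joining chain of secreted antibodies, and without the top cell the IR level fell from 810 to 174 CPM.

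Pglyrp1, the peptidoglycan-binding protein, was present in ducts, acini and natural killer cells. In ID it stood at 298 UMIs (841 CPM, 748 to 942) in control and 564 (923 CPM, 849 to 1003) in IR, and at 190 UMIs (954 CPM) without the near-identical barcodes. The control and IR intervals overlapped, and the control level was 948 CPM (843 to 1062) without the 2 Obp-rich barcodes, so no difference was detectable at this depth. The Etv1+ Dcpp-rich cells had 762 CPM in control (20 of 20 cells) and 737 CPM in IR (21 of 22 cells).

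Outside the ducts Pglyrp1 was also above the B-cell level of 28.4 CPM in control and 39.2 CPM in IR, where 6.80% and 9.32% of B cells had a UMI. Acinar cells had 101 CPM (299 UMIs) in control and 142 CPM (387 UMIs) in IR, the other deep Etv1+ cells 153 and 182 CPM, and natural killer cells 145 and 170 CPM from 15 and 30 UMIs. The ID level exceeded the acinar level 8.34-fold (7.08 to 9.83) in control and 6.48-fold in IR. The endothelial value of control, 35 UMIs, rested on 1 cell with 28.

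SD cells differed between the libraries in Pglyrp1. In control 2 of 88 SD cells held 4 UMIs (51.2 CPM, 13.9 to 131), and in IR 40 of 73 held 88 UMIs (661 CPM, 530.5 to 815). The SD set carried 78 UMIs at 764 CPM, and without the sets 7 of 32 cells held 12 UMIs (301 CPM, 155 to 525), still above the control interval. Median depth was 723.5 UMIs per SD cell in control and 741 in the IR cells outside the sets. After thinning to 1000 UMIs 1 of 20 control cells and 0 of those 12 IR cells deep enough had Pglyrp1. So few cells were deep enough that the thinned shares cannot decide whether SD cells outside the sets differed. Before thinning the cells with Pglyrp1 were 2 of 88 in control and 7 of 32 in IR.

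Crisp3, the CAP-family protein, had the largest SD to ID ratio of the 6. Control SD cells held 450 UMIs (5757 CPM, 5237 to 6314) in 53 of 88 cells (60.2%, against 4.65% of B cells), and control ID cells 9 UMIs (25.4 CPM, 11.6 to 48.2), which was the B-cell level of 23.7 CPM. The SD to ID ratio was 227 (118 to 499) in control and 196 (116 to 362) in IR, and 2415 (431 to 95567) without the near-identical barcodes, where the IR ID cells held 1 UMI. In IR the SD cells held 599 UMIs (4503 CPM, 4149 to 4878) in 63 of 73 cells, and without the near-identical barcodes 484 UMIs (12128 CPM, 11071 to 13258) in 23 of 32.

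In control SD 10 of the 53 cells with a Crisp3 UMI held 50% of the UMIs, and the highest cell held 47. In IR 4 of 63 cells did, or 3 of 23 without the sets, and the highest held 91. The SD set, in contrast, was at 1244 CPM from 127 UMIs. A macrophage-class value of 71 UMIs in control rested on 1 cell with 63 UMIs, which also carried 67 UMIs of Klk1 and 17 of Siglech.

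Lcn2, the siderophore-binding lipocalin, was highest in myoepithelial cells, the contractile cells around acini and ducts. These held 70 UMIs (1291 CPM, 1006 to 1631) in 5 of 16 control cells and 35 UMIs (750 CPM, 522 to 1043) in 4 of 23 IR cells. The control class has under 20 cells and was therefore outside the count above, in which the Etv1+ Dcpp-rich cells were the highest class for Lcn2 at 151 CPM. Of those 138 UMIs, 93 came from the 1 cell rich in Wfdc18 and Ltf, and without it the level was 51.9 CPM.

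In ID Lcn2 was low but above the B-cell level, with 31 UMIs (87.5 CPM, 59.4 to 124) in 18 of 107 control cells and 68 UMIs (111 CPM, 86.5 to 141) in 39 of 126 IR cells, and 27 UMIs (136 CPM, 89.4 to 197) in 9 of 71 without the sets. B cells held 1 UMI in control and 3 in IR. SD cells held 1 UMI in control and 21 in IR, of which 2 remained without the sets. The IR macrophage class held 108 UMIs, 88 of them in 1 cell that also had 332 UMIs of S100a8, 165 of Ngp, 76 of Camp and 34 of Ltf, all genes of neutrophil granules or cytosol.

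How many of the 6 genes passed the rule of size between the libraries, at least 2-fold from at least 10 UMIs over both libraries, depended on the class. In ID 1 of 5 genes with enough UMIs passed it, Wfdc2 (2.13, 0.84 to 6.41), an increase from 6 to 22 UMIs whose interval includes 1. Of the 3023 genes with enough UMIs in ID, 13.8% were at least 2-fold higher and 10.7% at least 2-fold lower in IR, so 1 of 5 is near the background. Without the 2 Obp-rich control barcodes Wfdc2 fell short of the rule (1.89) and Wfdc18 passed it as lower (0.46, 0.41 to 0.52). There 13.1% of 2963 genes were higher and 10.9% lower, so 1 of 5 was again near the background. Without the sets Wfdc2 (2.37, 0.72 to 8.30) and Crisp3 (0.20, from 9 and 1 UMIs) passed it, where 27.2% of 2153 genes were higher and 4.92% lower.

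The ID ratios of the abundant genes were close to 1 once the near-identical barcodes were out. Wfdc18 had a ratio of IR over control of 0.52 (0.46 to 0.58) with them and 0.99 (0.86 to 1.14) without them, a value that ranged from 0.46 when the 6 genes were kept in the clustering to 1.37 without the mitochondrial limit. Without the Obp-rich barcodes as well it was 0.88 (0.77 to 1.02). Pglyrp1 had 1.10 (0.95 to 1.27) and 1.13 (0.94 to 1.37), or 0.97 and 1.01 without the Obp-rich barcodes, and Lcn2 1.27 (0.82 to 2.01) and 1.55 (0.89 to 2.68). The median ratio over all ID genes was 1.04 with the sets and 1.48 without. When the Obp-rich barcodes were left out it was 0.97 with the sets and 1.38 without. With the Obp-rich barcodes in, values were also scaled by TMM, a trimmed mean of the ratios of all genes. This put Wfdc18 at 0.66 and Pglyrp1 at 0.76 without the sets, so their direction depended on the scale.

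In SD 3 of the 5 genes with enough UMIs were at least 2-fold higher in IR: Wfdc18 (3.40, 1.66 to 7.84), Pglyrp1 (12.9, 4.87 to 48.5) and Lcn2 (12.3, 1.99 to 510.3). Of 1634 SD genes 6.61% were at least 2-fold higher and 45.8% at least 2-fold lower, with a median ratio of 0.55. Without the sets the 3 genes higher were Wfdc18 (7.84, 3.70 to 18.5), Pglyrp1 (5.88, 1.78 to 25) and Crisp3 (2.11, 1.85 to 2.40), of 4 with enough UMIs, where 6.01% of 1199 genes were higher and 27.5% lower, with a median of 0.78. With 32 cells left, the Wfdc18 value rested on 5 cells and the Crisp3 value on 3 cells that held 50% of its UMIs. The ID marker Dcpp1 was also higher in IR SD cells. It went from 11257 CPM in control SD to 67088 CPM in IR SD, or to 33327 CPM without the sets. The part of ID RNA in the SD values of Wfdc18 and Pglyrp1 was not tested.

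The SD genes proper changed direction with the barcodes and with the scale. Crisp3 had a ratio of 0.78 (0.69 to 0.89) over all SD cells, 1.42 when scaled by TMM, and 2.11 without the sets. Wfdc2 had 0.66 (0.52 to 0.85), 1.21 when scaled by TMM and 1.18 (0.87 to 1.58) without the sets. Over the same cells Klk1 went from 46334 to 9802 CPM, or to 24105 CPM without the sets. Acinar marker genes summed to 221908 CPM in control SD and 424565 CPM in IR SD, or 321038 CPM without the sets. The part of this acinar RNA in the ratios was not tested.

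**Figure D3:**
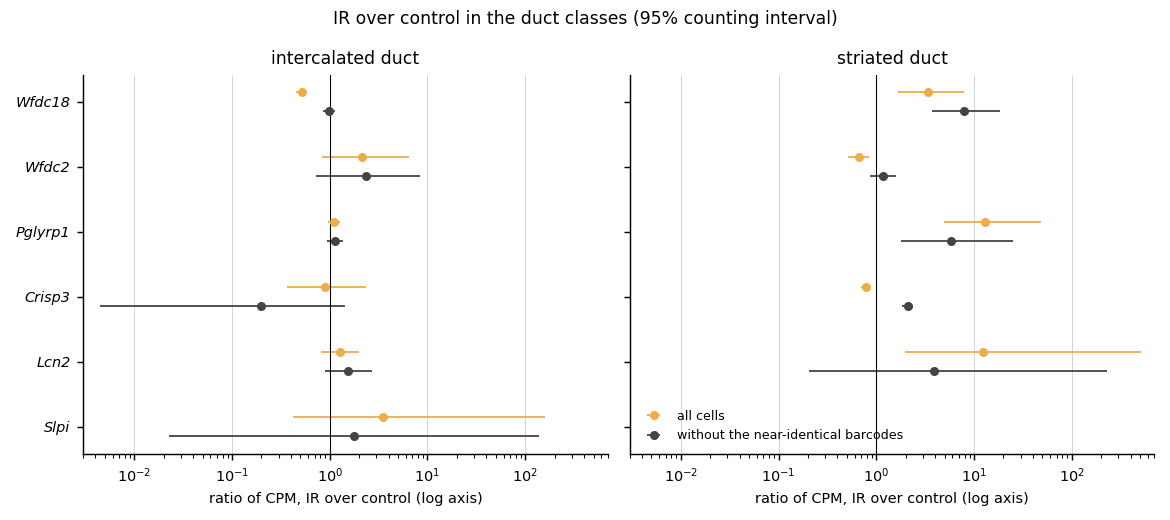
Ratio of CPM of IR over control (log axis) for each gene in ID (left) and SD (right), with 95% conditional binomial intervals, over all cells (orange) and without the near-identical IR barcodes (black). In ID Wfdc18 moves from 0.52 to 0.99 when these barcodes are left out, and in SD Crisp3 moves from 0.78 to 2.11. Slpi has no SD ratio because the control cells held 0 UMIs.

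In Etv1+ Dcpp-rich cells 4 of 6 passed the rule (Crisp3 and Slpi higher, Wfdc18 and Lcn2 lower, against 11.0% and 7.08% of genes), and 0 of them passed once the cell with most UMIs of each gene was left out. Wfdc18 there went from 0.36 (0.34 to 0.39) to 1.15 (1.05 to 1.26), Lcn2 from 0.31 to 0.65 and Slpi from 5.99 to 0.57. Crisp3 kept its ratio (5.14 and 5.55) and missed only the least number of UMIs, with 1 and 5 UMIs left. In acinar cells only Crisp3, below the B-cell level, passed it, and Pglyrp1 had a ratio of 1.41 (1.21 to 1.65), where 15.0% of acinar genes were at least 2-fold higher and 3.15% at least 2-fold lower. In macrophages all 4 genes with enough UMIs passed the rule, Wfdc18 (5.10), Pglyrp1 (2.17) and Lcn2 (1 to 108 UMIs) as higher and Crisp3 (0.04) as lower, against 9.04% and 8.76% of genes. Without the top cells Lcn2 (0 to 20 UMIs) and Crisp3 (0.25, 8 to 2 UMIs) still passed it, Pglyrp1 had 1.72, and Wfdc18 had 0.85 from 5 and 4 UMIs. Slpi was higher in IR in plasma cells (5.91, 2.94 to 13.9, against 40.7% of genes) and in T cells (2.69, 1.02 to 8.92, against 8.23%), and it still passed the rule without the top cells, with 4.95 (1.28 to 42.3) in plasma cells and 4 to 25 UMIs in T cells.

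In each of 6 further classes 1 gene passed the rule. Pglyrp1 was lower in Cxcr6+ T cells (0.10, 23 to 2 UMIs, and 0.11 without the top cells, against 5.38% of genes), in endothelial cells (35 to 2 UMIs, 7.09%) and in red blood cells (9 to 3 UMIs, 5.23%). Wfdc2 was lower in B cells (14 to 4 UMIs, 2.66%), Lcn2 was higher in deep Etv1+ cells (2 to 11 UMIs, 7.57%) and Wfdc18 was higher in shallow Etv1+ cells (4 to 14 UMIs, 10.6%). Myoepithelial Lcn2 had a ratio of 0.58 (0.38 to 0.88) and 0.37 without the top cells, from 9 cells with a UMI in all, where 9.15% of genes were at least 2-fold higher and 29.3% at least 2-fold lower.

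Pairs of genes of one segment were often seen in the same duct cells. Wfdc2 and Crisp3 were both present in 36 of 88 control SD cells (40.9%, 30.5 to 51.9) and in 16 of the 32 IR SD cells outside the sets, with a Spearman rho over cells of 0.53 and 0.44. Over all 73 IR SD cells they were both present in 47, with a rho of 0.23. Crisp3 was in 78.3% of the control SD cells with Wfdc2 and in 40.5% of those without. In IR these shares were 76.2% and 63.6% outside the sets, and 90.4% and 76.2% over all cells. In IR both genes thus met little more often than their separate shares give. Wfdc18 and Pglyrp1 were both present in 38 of 107 control ID cells (35.5%) and 29 of 71 IR ID cells outside the sets, but their levels were hardly related, with a rho of 0.16 and 0.05. Over all 126 IR ID cells both were present in 78, with a rho of 0.04. Pglyrp1 was in 59.4% of the control ID cells with Wfdc18 and in 32.6% of those without. In IR outside the sets these shares were 64.4% and 38.5%. The part of cell depth in these shares was not tested. In the Etv1+ Dcpp-rich cells, which are deeper, the same pair had a rho of 0.84 over 20 control cells and 0.62 over 22 IR cells. All cells of a class share a library, and their depths differ widely, so these correlations are descriptions.

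**Figure D4:**
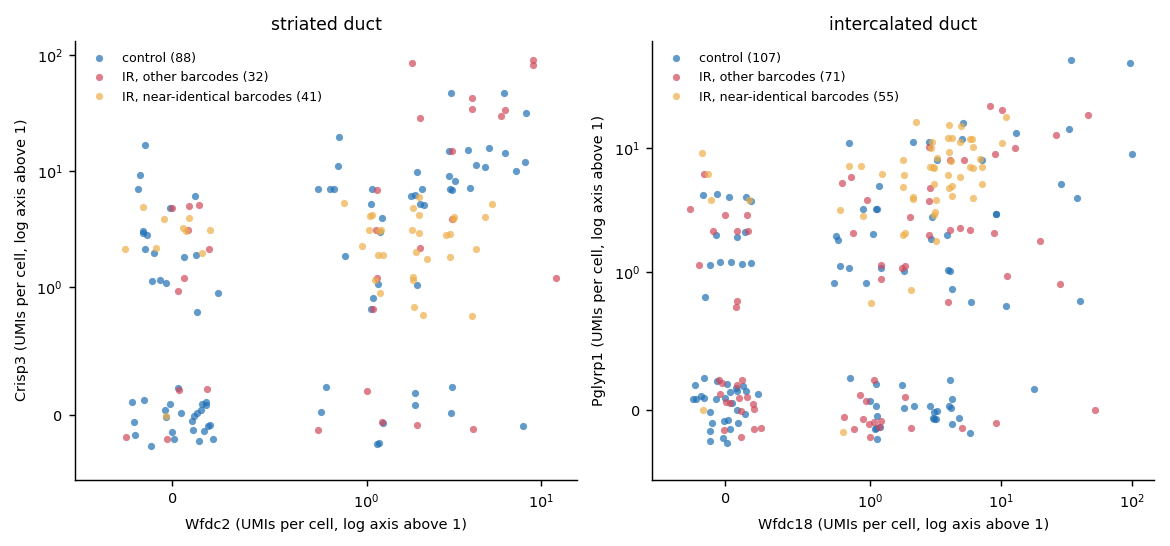
UMIs per cell of Wfdc2 and Crisp3 in SD cells (left) and of Wfdc18 and Pglyrp1 in ID cells (right), on axes that are linear up to 1 UMI and logarithmic above, with small random offsets so that points do not hide each other. Control cells (blue) and other IR cells (red) range from 0 up to 91 UMIs of Crisp3 and 101 UMIs of Wfdc18, whereas the near-identical IR barcodes (orange) sit in a narrow middle range.

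The limit of 5% mitochondrial UMIs removed most of the message of the SD genes. Of all Crisp3 UMIs, 1095 of 1808 (60.6%) in control and 2012 of 2909 (69.2%) in IR were in barcodes over the limit, and of Wfdc2 403 of 613 (65.7%) and 404 of 639 (63.2%). Wfdc18 and Pglyrp1 lost 2.33% and 4.93% in control and 10.2% and 9.65% in IR. When cells were clustered without the limit, the SD class took 93.9% of these Crisp3 UMIs in control (1028 UMIs in 42 barcodes, 6475 CPM) and 95.7% in IR (1926 UMIs in 49 barcodes, 9780 CPM), and it took 94.3% of the Wfdc2 UMIs in both libraries.

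Of the SD barcodes 31.6% of 133 in control and 39.2% of 125 in IR lay over the mitochondrial limit, against 8.49% and 8.63% of the ID barcodes. The shares were 18.5% and 14.3% for acinar cells and 32.3% and 39.6% for B cells, so a loss of this share of barcodes was not particular to SD. The share of UMIs lost was not compared between classes. SD cells are known for rows of mitochondria along their basal folds, and the part of these in the SD shares was not tested. With these barcodes in, the ratio of IR over control in SD was 1.21 (1.14 to 1.29) for Crisp3 and 0.74 (0.65 to 0.83) for Wfdc2, and 1.62 and 0.90 when the near-identical barcodes were also left out. The levels within SD cells over and under the limit were of the same order, but the count of SD cells on which the ratios rest depended on it.

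**Figure D5:**
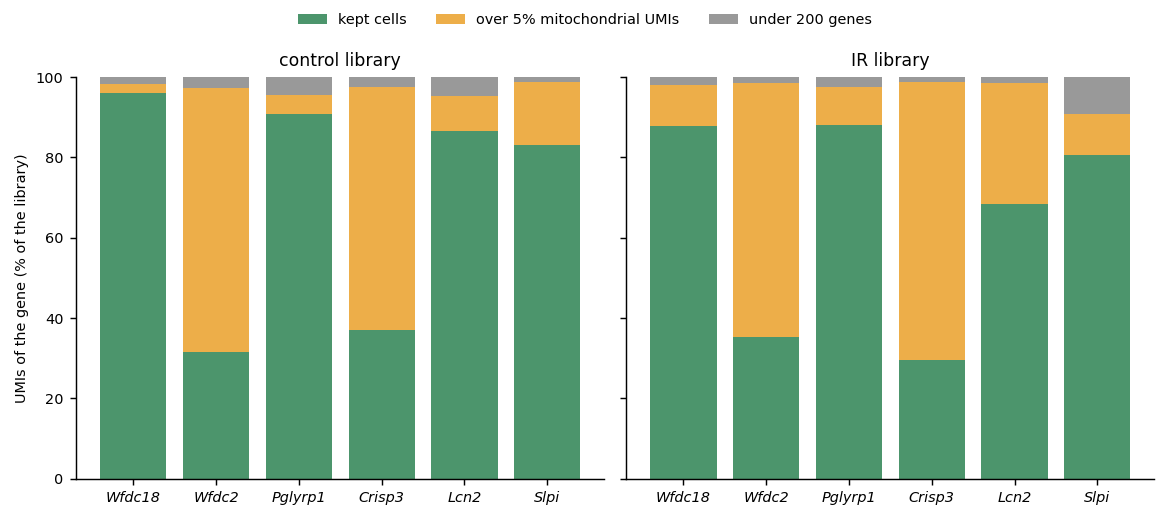
Share of all UMIs of each gene (y axis, %) in kept cells (green), in barcodes over 5% mitochondrial UMIs (orange) and in barcodes under 200 genes (grey), in the control (left) and IR (right) library. For Wfdc2 and Crisp3 the orange part is over 60% of the bar in both libraries, and for Wfdc18 and Pglyrp1 it is 2.33% to 10.2%.

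The genes whose levels over the classes were most like those of the 6 were found by Pearson correlation of log2(CPM + 10) over 33 points, each 1 class of 1 library, among 10117 genes. Wfdc18 was most like Dcpp1 (0.92), Dcpp3 (0.88), Gsta3 (0.85), Pglyrp1 (0.83) and Dcpp2 (0.81), and Pglyrp1 like Wfdc18 (0.83), Dcpp1 (0.82), Gm21718, Arg1 (both 0.81) and Wfdc12 (0.80). Wfdc2 went with the kallikreins Klk1b11 (0.94), Klk1b26 (0.93) and Klk1 (0.91), with Mapk13 (0.92), a stress kinase, and with Tfcp2l1 (0.90), and Crisp3 with Klk1b26 (0.95), Klk1b11 (0.94), Mapk13 (0.94), Klk1 (0.93) and Wfdc2 (0.90).

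Lcn2 was most like the basal keratin Krt14 (0.79), followed by Esp18 (0.77), Gfra3 (0.75), Krt17 and Csn3 (both 0.72), and Slpi like the antibody gene segment Igkv14-126 (0.81), then Txndc5 (0.79), Iglv1 (0.79), Cox6a2 (0.77) and Iglc3 (0.76). The points share libraries and classes, so these values describe likeness and carry no test. Leaving out the near-identical barcodes kept Dcpp1 first for Wfdc18 (0.92), Klk1b26 first for Crisp3 (0.96) and Krt14 first for Lcn2 (0.83).

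Other defence genes of the same families were read in the ducts from fixed lists, against the shares of all genes past 2-fold given above (in ID 13.8% higher and 10.7% lower, or 27.2% and 4.92% without the sets, and in SD 6.61% and 45.8%, or 6.01% and 27.5%). Of 19 further WAP-domain genes, 18 were in the table and 1 had at least 10 UMIs in ID, Wfdc12, which went from 57 to 297 UMIs (161 to 486 CPM, ratio 3.02, 2.27 to 4.09), and to 693 CPM (ratio 4.31, 3.14 to 5.98) without the sets. In SD Wfdc12 had a ratio of 2.86 (1.32 to 7.10), and 1.22 (0.32 to 4.24) without the sets. Of 12 further CAP-domain genes only Crisp1 had enough UMIs, and unlike Crisp3 it was present in both segments: in ID at 731 CPM in control and 2001 CPM in IR (ratio 2.74, 2.39 to 3.14), with 1.81 (1.52 to 2.15) without the sets, and in SD with ratios of 1.64 and 1.08.

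Among 17 lipocalins and Lcn2 receptors only Lcn11 had 10 UMIs in ID, 144 in control, all in the 2 Obp-rich barcodes, and 0 in IR, at least 82.7-fold lower against a floor of 3 UMIs (at least 27.0-fold without the sets). Of 8 genes of peptidoglycan recognition and their partners only Hspa1a, a heat-shock protein that binds Pglyrp1, had enough UMIs, with a ratio of 0.57 (0.40 to 0.82) in ID and 1.13 in SD, and of 0.51 and 0.63 without the sets. Without the sets and the Obp-rich barcodes it was 0.46 (0.26 to 0.79) in ID, which passed the rule as lower. There 23.2% of 2091 genes were higher and 4.07% lower. Of 14 proteases and protease inhibitors, 3 had enough UMIs in ID and 1 was at least 2-fold higher, where 13.8% of all ID genes were. It was Spint2, an epithelial inhibitor of serine proteases (52 to 189 UMIs, ratio 2.11, 1.54 to 2.93, and 2.16 without the sets, 1 of 2 against 27.2%). In SD Spint2 had 2.09 (1.22 to 3.75, and 1.41 without the sets), Cst3 (cystatin C) 1.30 and 1.65, and Serpinb1a 0.29 from 12 and 6 UMIs (0.65 without the sets).

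Of 31 other genes of salivary and mucosal defence, 7 had enough UMIs in ID, of which 1 was at least 2-fold higher (Cd14, 4 to 19 UMIs, which is below 10 UMIs in all without the sets) and 3 lower, against 13.8% and 10.7% of all ID genes. The 3 were Ltf (47 to 5 UMIs, 37 of the 47 in 1 cell), Dmbt1 (20 to 0, in 3 cells) and Lyz2 (12 to 7). Pigr, the receptor that carries antibodies across epithelium, had a ratio of 0.76 (0.54 to 1.07), and 0.37 (0.19 to 0.67) without the sets, and Lpo (lactoperoxidase) 1.09 and 0.61 (0.35 to 1.02). Without the sets 0 of 6 were thus higher and 4 lower, Ltf, Dmbt1, Lyz2 and Pigr, against 27.2% and 4.92% of all ID genes. In SD Bpifb1 went from 1 to 48 UMIs, of which 2 remained without the sets, and Bpifa2 had a ratio of 2.45 and 1.70 without the sets.

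Of 28 inducers of epithelial defence genes, which include the cytokines and factors known to act on Lcn2, 10 had enough UMIs in ID, 3 were at least 2-fold higher and 0 lower, against 13.8% and 10.7% of all ID genes. These were Rela (1 to 16 UMIs), Tnfrsf1a (2 to 19) and Elf3 (8 to 31, ratio 2.25, 1.01 to 5.66), and without the sets only Rela passed the rule, 1 of 8 against 27.2%. Without the Obp-rich control barcodes Elf3 was at 1.99 and Nfkb1 was lower (0.46, 0.17 to 1.27). Thus 2 of 10 were higher and 1 lower, against 13.1% and 10.9% of all ID genes there. Cebpb had a ratio of 1.80 (1.19 to 2.76) in ID, and 1.72 (1.02 to 2.92) without the sets, Nfkbia 1.08 and Ehf 0.68 (0.45 to 1.02). In SD 5 had enough UMIs, 0 were higher and 1 was lower, Elf3 (6 to 5 UMIs), against 6.61% and 45.8% of all SD genes. Cebpd stood at 269 CPM in control and 263 CPM in IR, or 727 CPM (ratio 2.71, 1.49 to 4.99) without the sets. Of the 29 Cebpd UMIs outside the sets 14 were in 1 cell. Without the top cells the levels were 206 CPM in control and 386 CPM in IR outside the sets.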

How the data were processed

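Single-cell libraries (10x Chromium, polyA RNA) of 1 control and 1 IR pool of parotid glands were used. The authors aligned reads to mm10 and deposited raw UMI counts per gene and barcode (Cell Ranger 3.0.1 and Seurat 3, per the submitters' processing notes). No values were normalized before deposit, and how cells were told from empty droplets is not given in the sources used here. Each library's total count and the counts behind each value set the precision.

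As in the study, barcodes under 200 genes or over 5% mitochondrial UMIs were removed. Cells were log-normalised and integrated with anchors in Seurat 5.3.0 (R 4.3.3), using 2000 variable genes without the 6 genes and 30 components, and clustered at resolution 0.5, the lowest of a fixed series that separated ID from SD. Classes were named from marker lists. The endothelial and Etv1+ clusters, and the cluster that held the plasma cells, were clustered again with 20 components at resolution 0.8. The Etv1+ Dcpp-rich class is 1 of the resulting subclusters, and the plasma and red blood cell classes are subclusters as well. Doublet scores were computed with Scrublet in scanpy 1.11.5, whose own threshold called very few cells, so none were removed, and leaving out the highest 6% of scores was an alternative.

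UMIs were summed per class and library and divided by the class total (CPM). Intervals are exact Poisson for levels, Clopper-Pearson for shares and conditional binomial for ratios, all at 95% (scipy 1.17.1), and they cover counting error only. A ratio was counted when it was at least 2-fold from at least 10 UMIs over both libraries, and a count of 0 was given a floor of 3 UMIs. Cells were thinned to 1000 UMIs for shares, and shallower cells were left out. A set of barcodes was called near-identical when pairs of barcodes with at least 1000 UMIs had a chi-square per gene below 2 over the 100 most abundant genes, for at least 10 barcodes. TMM factors came from edgeR 4.0.16, and figures from matplotlib 3.10.9. Simulated counts were drawn with counting error only. On them the ratios recovered the direction of 200 of 200 changed genes in ID and in SD. Of the intervals, 96.5% in ID (2735 genes) and 97.1% in SD (1467 genes) held the true ratio. Of the unchanged genes, 13.6% in ID and 16.3% in SD passed the 2-fold size. The simulation held no spread between cells, so it cannot say how the intervals cover the wider spread of the real barcodes.

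The genes named are the 6, those genes of the fixed defence lists with at least 50 UMIs in the duct classes or with the highest or lowest ratio of their list in a duct class, the 5 genes most like each of the 6 among genes with at least 100 UMIs, and markers on which a result turns. Genes named beside single cells, and those that make up a count of 5 or fewer, were chosen after their values were seen. The 6 genes and the lists were chosen with earlier results of these data known. Alternatives changed the clustering, the filters, the scale, the rule of size and the depth of thinning. Control ID barcodes with over 50% of UMIs from 8 genes led by Obp1b were left out in an alternative chosen after seeing the data.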

Additional observations from a re-analysis of the deposited data

Results flagged for a closer look

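The levels of the 6 genes outside the filter are given as CPM of all barcodes over 5% mitochondrial UMIs. The share of all genes higher in IR there is not known, so the values do not set the 6 genes apart. Wfdc18 stood at 110 CPM in IR (69.0 in control), Pglyrp1 at 107 CPM (69.0), Crisp3 at 743 CPM (543), Lcn2 at 49.1 CPM (12.9) and Slpi at 16.2 CPM (6.95), whereas Wfdc2 stood at 149 CPM in IR and 200 CPM (199.98) in control. For Wfdc18 1 barcode held 22.9% of these UMIs in IR (16.5% in control), and for Crisp3 1 barcode held 24.4% (20.4%). When cells were clustered without the mitochondrial limit, the IR barcodes over it that joined the SD class held 118 Pglyrp1 UMIs, 110 of them in 1 barcode, and 73 Lcn2 UMIs, 49 of them in 1 barcode.

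In barcodes with fewer than 200 genes Slpi stood at 47.9 CPM in IR and 0.616 CPM in control, and 16 of the 40 UMIs in IR were in 1 barcode.

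Wfdc18 moved in opposite directions in the ducts, with a ratio of IR over control of 0.52 in ID and 3.40 in SD. Without the near-identical barcodes the ratios were 0.99 and 7.84. With 1 library per condition the difference between the classes was not tested.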

How the results depend on the processing

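No paired analysis was possible because each condition had 1 library, and for the same reason no replicate could be left out. Of 246 levels under alternatives 139 stayed within their counting interval and 107 moved. At the next higher resolution each duct class had as many cells as reported, so its values, counted here, say little about stability. Of 237 ratios of IR over control 39 fell on the other side of 1 from the reported value, among them 8 of 11 for Crisp3 in SD and 6 of 11 for Wfdc2 in SD, and 6 of the 39 belonged to ratios that were past 2-fold as reported. The number of the 6 genes past 2-fold in ID, 1 as reported, was 2 with a 1.5-fold rule, with no least number of UMIs, with TMM or median-of-ratios factors, with the genes kept in the clustering, without the highest doublet scores and without the near-identical barcodes, 3 with no integration, 4 with a mitochondrial limit of 10%, and 0 with a 3-fold rule or without the cell with most UMIs. Without the 2 Obp-rich control barcodes it was 1, Wfdc18 in place of Wfdc2. In SD it was 3 as reported and 1 with the 10% limit, and in Etv1+ Dcpp-rich cells 4 as reported and 0 without the top cell, where Crisp3 kept its ratio but had under 10 UMIs. The number highest in a duct class in control was 5, and 3 without the highest doublet scores. These 6 were Wfdc18 (1.15) and Slpi (0.57) in Etv1+ Dcpp-rich cells without the top cell, Lcn2 in SD with no integration (0, from 0 UMIs in IR), and Crisp3 in ID without the near-identical barcodes, which was 26.8 with the 10% limit, 1.24 with the genes kept in the clustering and 2.61 with no integration. The causes were not tested. Over the alternatives the ratio of Crisp3 in SD ranged from 0.74 to 3.41 (1.49 to 3.41 when the near-identical barcodes were left out throughout), that of Wfdc2 in SD from 0.64 to 1.78 (0.90 to 1.78), that of Wfdc18 in ID from 0.36 to 0.99 (0.46 to 1.37) and that of Pglyrp1 in ID from 0.93 to 1.22 (0.76 to 1.25). With at least 500 genes per cell no duct class could be named (the ID cells joined the myoepithelial cluster), so this alternative gave no value. The Etv1+ Dcpp-rich class was found only at the reported and the next higher resolution. IR SD had 73 cells as reported, 27 with no integration, 25 without the highest doublet scores and 40 with the 10% limit. IR ID had 126, 176, 174 and 215. With the genes kept in the clustering IR SD had 79 and IR ID 147 cells, and without the mitochondrial limit 125 and 139. Where the cells of the SD set went was not tested. Leaving out near-identical barcodes, Obp-rich barcodes, top cells and the Etv1+ Dcpp-rich class were alternatives chosen after seeing the data. Depth limits the SD values, since control SD cells held 78172 UMIs in all and IR SD cells outside the sets 39908.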
